A study of Mus musculus with 24 samples.

Results

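Wnt ligands, their Frizzled receptors and the genes that act directly on them were examined in 2D muscle tissues stimulated with light. The members were all genes whose names mark them as Wnt ligands, Frizzled (Fzd) receptors, secreted frizzled-related proteins (Sfrp) or Dickkopf proteins (Dkk), together with Axin2, Lef1, Tcf7, Tcf7l2, Lrp5, Lrp6, Ror2, Frzb, Wif1, Nkd1 and Rspo3. This gave 48 of the 56941 genes in the deposited tables. They comprised 19 Wnt ligands, 10 Frizzled receptors, 3 co-receptors, 10 secreted antagonists, 3 nuclear factors, 2 feedback inhibitors and 1 secreted agonist.

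The RNA came from C2C12 cells, mouse myoblasts grown as a line and able to fuse into contractile fibers in culture, and was read by bulk RNA sequencing (RNA-seq). All tissues, controls included, carried the ChR2::tdTomato genotype, in which channelrhodopsin, a blue light-gated ion channel, is tagged with a red fluorescent protein. All were differentiated on grooved fibrin hydrogels in medium with heat-inactivated horse serum and IGF-1. Light pulses at 1, 4 or 10 Hz were given over 30 min a day to 3 of the conditions, while the control tissues were left unstimulated, with 6 libraries per condition and 24 in all. The control tissues received no light, so an effect of light itself and one of the contraction it triggers cannot be told apart. All tissues came from 1 cell line, and each library is 1 tissue of mixed fibers and unfused cells.

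Wnt proteins are secreted, lipid-modified glycoproteins that bind Frizzled receptors on the cell surface. When Lrp5 or Lrp6 joins the complex, β-catenin escapes degradation and acts in the nucleus with Tcf and Lef factors. Other branches, which use receptors such as Ror2, act on cell shape and polarity without β-catenin. In skeletal muscle the pathway is known for its part in embryonic myogenesis and in muscle stem cells during repair.

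The libraries held 4.09 M to 15.2 M estimated counts, with a median of 7.48 M, and the members took 0.0459% to 0.0570% of them. The medians were 5.32 M in control, 7.38 M at 1 Hz, 8.67 M at 4 Hz and 7.83 M at 10 Hz. Raw counts of different conditions are thus not on 1 scale. The lowest tested members rest on few reads per library, which are given beside their values. The muscle label was checked against 8 fiber genes (Myog, Ckm, Actn2, Ttn, Des, Myh3, Acta1 and Tnnt3), all of which were detected. Their summed level was 6343 to 8007 CPM (counts scaled to a common library size) in control, 9071 to 12497 at 1 Hz, 9310 to 14349 at 4 Hz and 6768 to 9976 at 10 Hz. Libraries were made from poly(A)-selected RNA, except that ribodepletion was used for samples of low input, and the labels leave unsaid which those were. The summed share of 20 non-polyadenylated small RNAs was 98.8 to 169 CPM in control, 15.03 to 70.2 at 1 Hz, 18.3 to 51.1 at 4 Hz and 38.4 to 272 at 10 Hz. The control libraries thus had higher shares than every library at 1 Hz and at 4 Hz, and the members are given below with and without this share in the fit.

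Of the 48 members, 47 had at least 1 count in some library, and 27 passed the filter on low counts, which asked for at least 1.34 CPM in at least 6 libraries. These were 7 Wnt ligands (Wnt9a, Wnt11, Wnt10b, Wnt10a, Wnt4, Wnt6 and Wnt7b), 9 Frizzled receptors (all but Fzd10), all 3 co-receptors, 4 antagonists (Sfrp4, Dkk2, Dkk3 and Sfrp2), all 3 nuclear factors and 1 feedback inhibitor (Axin2). Of the 27, 16 were above 1.34 CPM in all 24 libraries and 11 in fewer. Ror2, Sfrp2 and Wnt6 reached it in no control library, and passed only through stimulated libraries. Ror2 reached it in no 10 Hz library either, and Sfrp2 and Wnt6 in 1 each. Their presence among the tested genes is thus itself tied to the comparisons of 1 and 4 Hz with control and with 10 Hz.

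Levels of different genes were compared in TPM, which the authors scaled by transcript length. Over all 24 libraries, Fzd7 was the highest member, at a mean of 33.3 ± 4.80 TPM (SD, n = 24). It was followed by the co-receptor Lrp5 at 18.6 ± 5.60 TPM, by Wnt9a at 16.6 ± 2.57 TPM and by Fzd6 at 13.6 ± 2.67 TPM. Fzd2 (12.3 TPM) and Lrp6 (12.2 TPM) came next and were closer together than their SDs of 2.69 and 2.87 TPM. Fzd1 stood at 9.59 ± 1.67, Tcf7 at 8.91 ± 2.16 and Fzd5 at 8.03 ± 1.67 TPM, again within 1 SD of each other. The order below Fzd7 changed with condition: Lrp5 was at 19.2, 25.5, 16.4 and 13.4 TPM in control and at 1, 4 and 10 Hz, and Wnt9a at 15.4, 18.9, 16.5 and 15.7 TPM. In control Lrp6 (14.8 TPM) was also above Fzd6 (11.9 TPM).

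**Figure D1:**
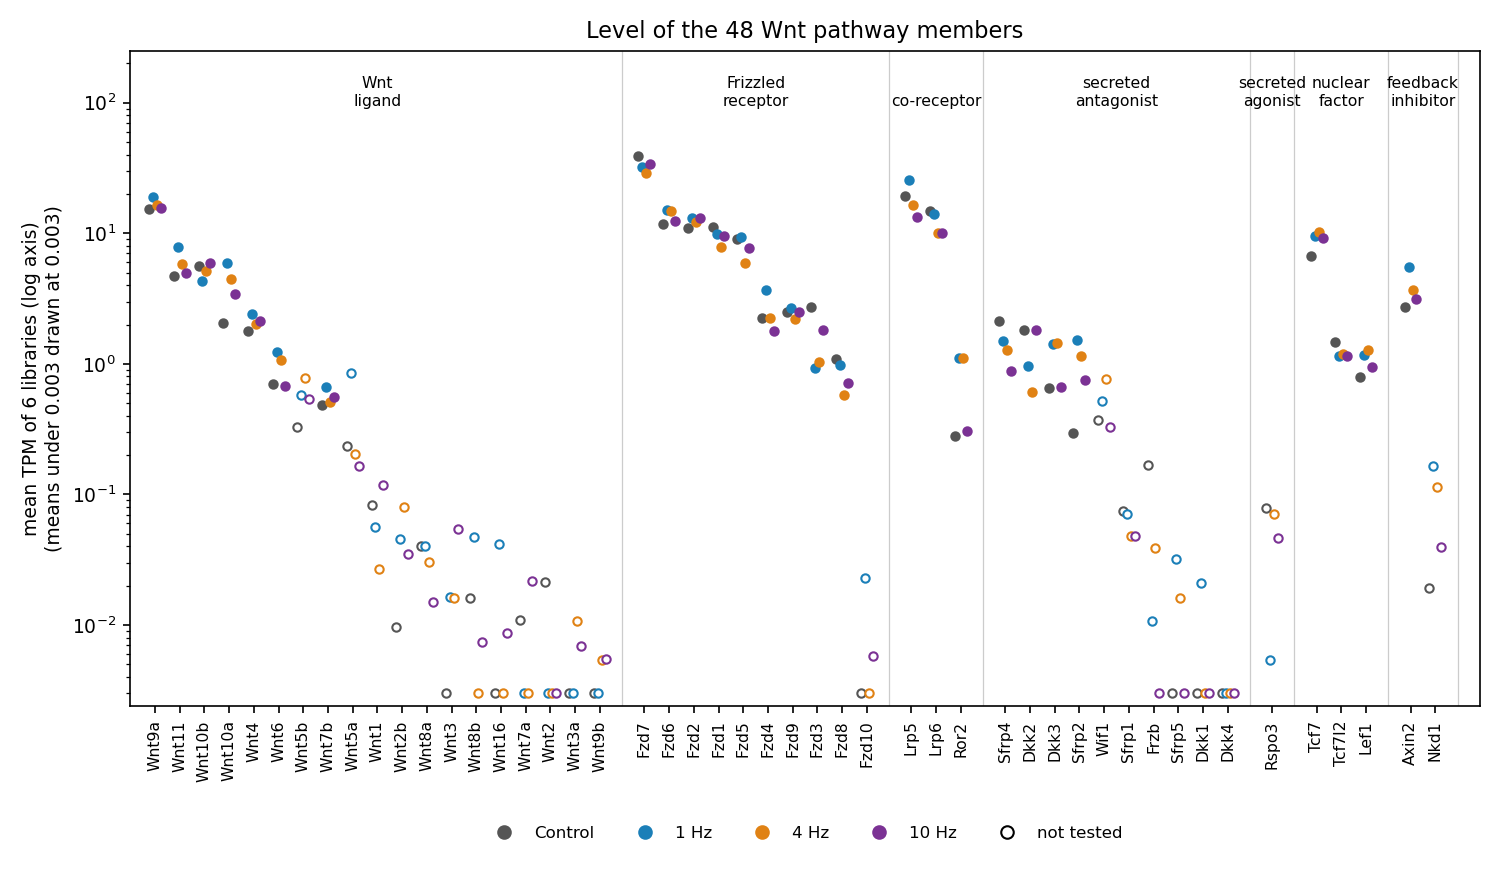
Mean TPM (log axis) of each of the 48 members in control, 1 Hz, 4 Hz and 10 Hz tissues, 6 libraries each, ordered by role and level, with filled points for the 27 tested members and open points for the 21 that did not pass the filter, the lowest of them drawn at the floor of the axis. Fzd7, Lrp5 and Wnt9a lie highest, and most untested ligands and antagonists lie below 0.1 TPM.

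The 21 members not tested were low throughout. Wnt5b had 161 counts over all 24 libraries, Wnt5a 140 and Wif1 131. Sfrp1, a secreted decoy that binds Wnt proteins, had 34 counts in all, between 0 and 5 per library, and its mean lay between 0.0483 and 0.0746 TPM in the 4 conditions. Wnt1 had 21 counts, Wnt2b and Nkd1 20 each, Rspo3 15 and Wnt3 9. The others had at most 7, and Dkk4 had 0 counts in every library.

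Wnt9a made up 48.9% ± 4.37 of the summed TPM of the 19 ligands in control (SD, n = 6), 44.4% ± 4.28 at 1 Hz, 45.1% ± 3.23 at 4 Hz and 45.5% ± 2.11 at 10 Hz. The part of Wnt10a was 6.56% ± 0.871 in control, 13.6% ± 3.21 at 1 Hz, 12.1% ± 1.08 at 4 Hz and 9.82% ± 2.06 at 10 Hz. Wnt10b took 17.8% ± 2.09 in control, 10.1% ± 1.93 at 1 Hz, 14.2% ± 3.50 at 4 Hz and 17.3% ± 1.23 at 10 Hz. For both ligands these parts did not overlap between the libraries of control and 1 Hz, with Wnt10a higher and Wnt10b lower at 1 Hz. The ligand sum itself was 31.5 ± 4.63 TPM in control and 42.8 ± 5.23 at 1 Hz. The TPM of Wnt10b did overlap, at 4.39 to 6.59 in control and 3.26 to 5.26 at 1 Hz. That of Wnt10a did not, at 1.48 to 2.71 and 3.48 to 8.74. Among the receptors, Fzd7 held 43.0% ± 2.02 of the summed Frizzled TPM in control and 36.6% ± 4.42 at 1 Hz, and these values did overlap. These parts are a description, with no test.

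**Figure D2:**
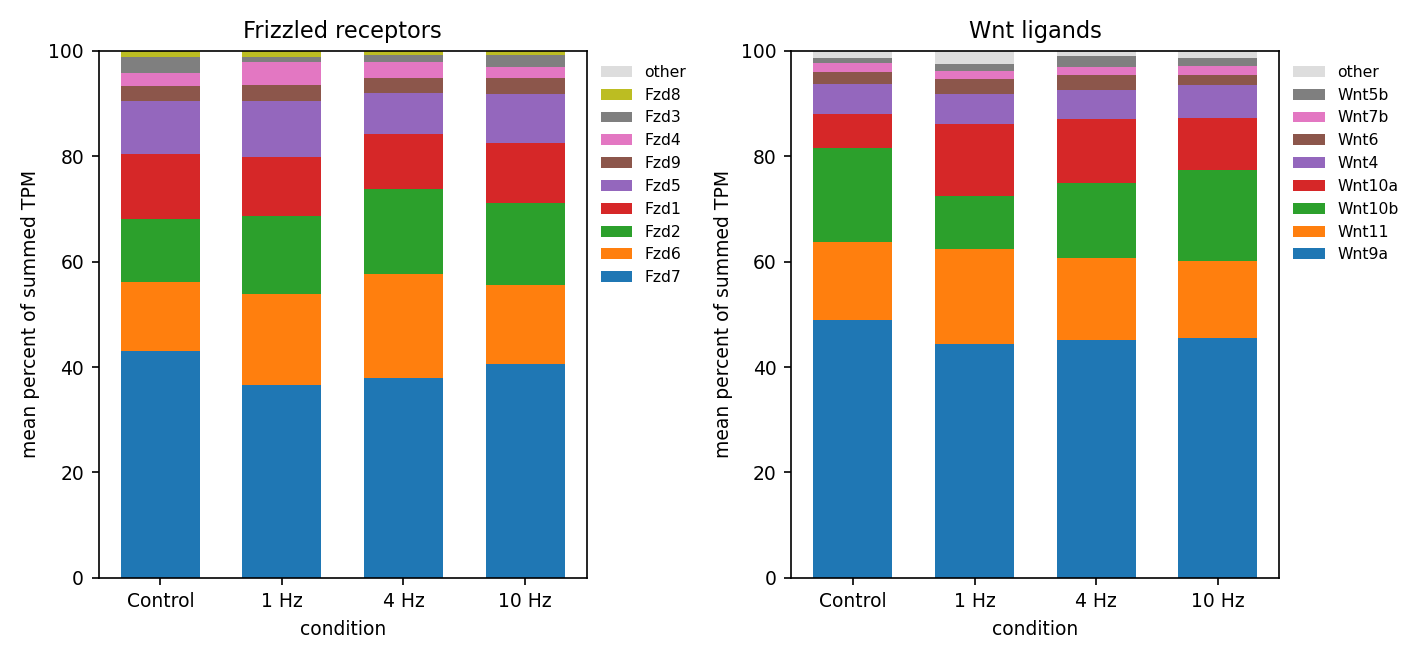
Mean percent of the summed TPM of the 10 Frizzled receptors (left) and of the 19 Wnt ligands (right) taken by each gene in the 4 conditions, n = 6 libraries each. Fzd7 holds between 36.6% and 43.0% of the receptor sum, and Wnt9a between 44.4% and 48.9% of the ligand sum.

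The frequencies were compared in 1 fit of all 24 libraries with edgeR's quasi-likelihood test and Benjamini-Hochberg adjustment over the 13318 genes tested. To be called, a gene needed both an adjusted p under 0.05 and a log2 fold change larger than 0.5 in size. At 1 Hz, 9 of the 27 tested members were called against control, 8 higher (Ror2, Sfrp2, Wnt10a, Dkk3, Lef1, Axin2, Fzd4 and Tcf7) and 1 lower (Fzd3). Among all genes 18.3% were called in this comparison, 9.34% higher and 8.99% lower. At 4 Hz, 9 of 27 were called against control, 7 higher (Ror2, Sfrp2, Dkk3, Wnt10a, Lef1, Tcf7 and Axin2) and 2 lower (Dkk2 and Fzd8), where 20.1% of all genes were called, 10.5% higher and 9.61% lower. At 10 Hz, edgeR called 0 of 27 members against control, with 6 at an unadjusted p below 0.05, while DESeq2 called 1 (Tcf7). The share of all genes called at 10 Hz was 1.86%. These 3 comparisons share the control libraries. At 4 Hz, total-count scaling left 7 members called higher and raised those called lower to 4, and 35.7% of all calls were then higher. Limma on log2(TPM + 1), which also differs in test, pseudocount and filter and could fit 22 members, called 3 higher and 4 lower, with 24.8% of all calls higher.

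The median log2 fold change of the 27 tested members was 0.40 at 1 Hz, 0.22 at 4 Hz and 0.13 at 10 Hz against control, and that of all genes tested was -0.01 in each. Ror2, Sfrp2 and Wnt6 are among the 27 only through stimulated libraries, and their values were positive in each comparison. That selection can raise the median, and no median without them was taken. The members called higher were the Wnt10a ligand, the Ror2 co-receptor, secreted antagonists (Sfrp2 and Dkk3), nuclear factors (Lef1 and Tcf7) and the feedback inhibitor Axin2, and at 1 Hz also the receptor Fzd4. When the log2 share of the small RNAs was added to the fit as a covariate, 0 of 27 members were called at 1 Hz or at 4 Hz against control. In that fit, 5 and 7 members kept an unadjusted p below 0.05, and 1 and 250 of all genes were called. Because of the separation of that share between control and these conditions, the stimulation and the RNA composition of the libraries cannot be told apart there, and this holds for each call against control below.

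**Figure D3:**
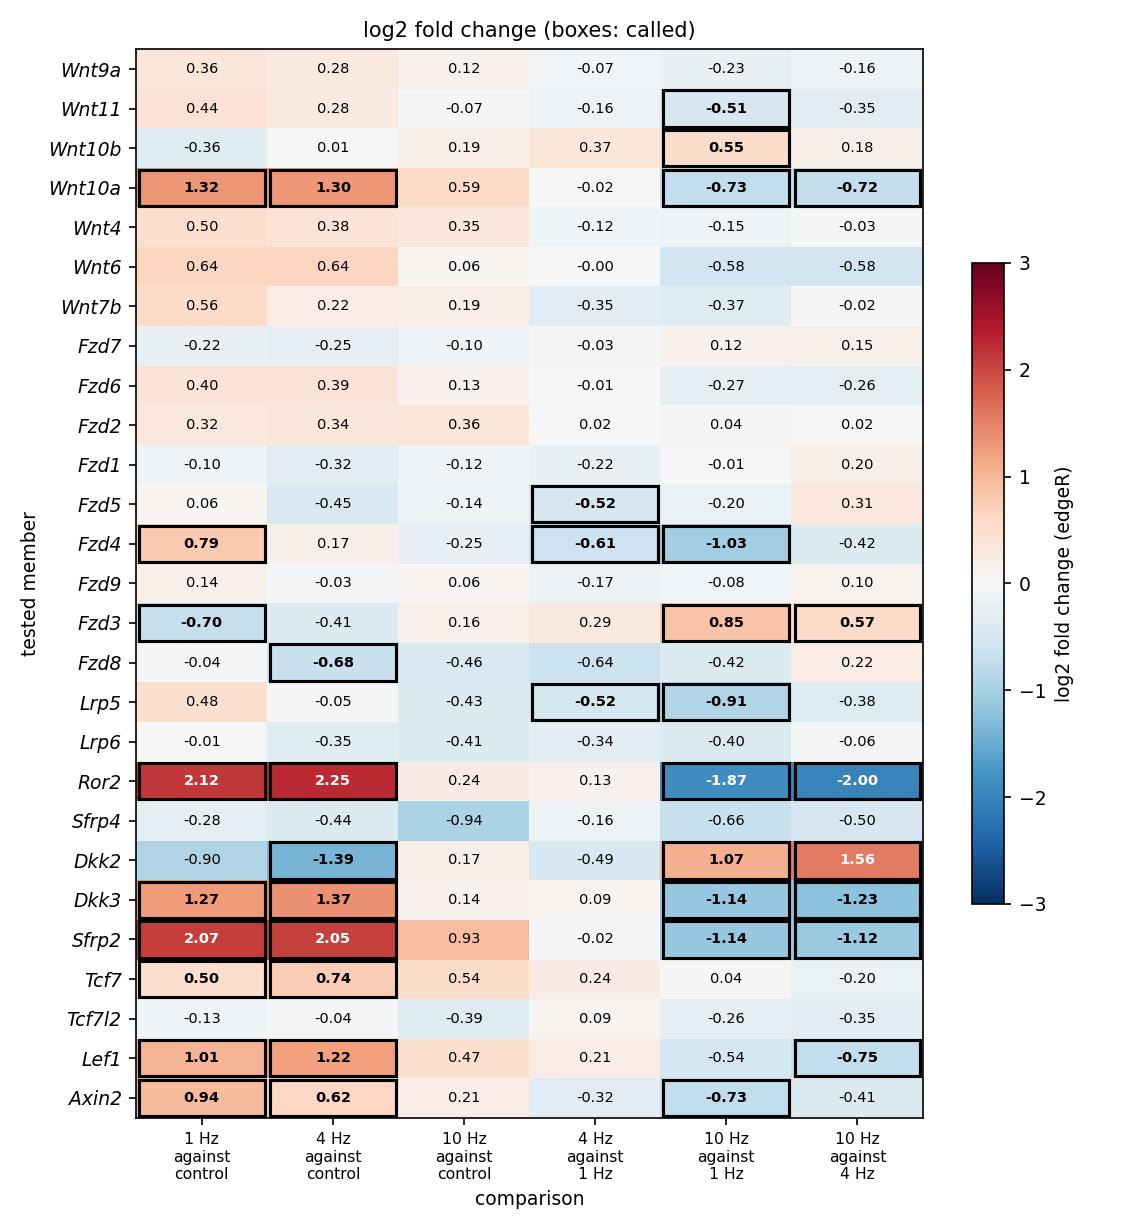
Log2 fold change of the 27 tested members (rows, by role) in the 6 comparisons (columns), as fitted by edgeR from 6 libraries per condition; boxed values were called. The boxes of the first 2 columns hold 9 members each, the column of 10 Hz against control holds 0, and the signs of Ror2, Sfrp2, Dkk3 and Wnt10a in the last 2 columns are opposite to those in the first 2.

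Among the ligands, only Wnt10a was called against control in this fit. Wnt10a, a ligand known from tooth, hair and fat development, is a 4-exon gene at chr1:74830675-74844355 (GRCm39, + strand). It ranged from 2.30 to 4.02 CPM in control (median 3.45), from 5.67 to 12.3 at 1 Hz (median 7.34), from 6.26 to 11.6 at 4 Hz (median 7.82) and from 3.02 to 7.20 at 10 Hz (median 4.91). No library at 1 or 4 Hz reached down to the control libraries, and 4 of 6 at 10 Hz lay above them. Wnt10a rose at 1 Hz, with a log2 fold change of 1.32 and an SE of 0.23 (edgeR adjusted p = 0.000138). At 4 Hz it rose by 1.30 ± 0.23 (log2 fold change ± SE, as in all that follows, edgeR adjusted p = 9.84e-05). At 10 Hz the difference was 0.59 ± 0.24 (edgeR adjusted p = 0.154). It was lower at 10 Hz than at 1 Hz by -0.73 ± 0.22 (edgeR adjusted p = 0.00951) and than at 4 Hz by -0.72 ± 0.21 (edgeR adjusted p = 0.0169), a call lost without 4 Hz library 6. The neighbouring ligand gene Wnt6 ends 5699 bases before Wnt10a on the same strand. It lay between 0.417 and 2.27 CPM in all libraries, with log2 fold changes of 0.64 ± 0.37 at 1 Hz (edgeR adjusted p = 0.184) and 0.64 ± 0.36 at 4 Hz (edgeR adjusted p = 0.163), and was not called.

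Wnt9a, the most abundant ligand and one with known roles in cartilage and joints, was not called by edgeR in any comparison. It ranged from 25.3 to 39.7 CPM in control (median 33.7), from 39.5 to 45.8 at 1 Hz (median 43.4), from 34.8 to 46.2 at 4 Hz (median 41.5) and from 27.2 to 42.7 at 10 Hz (median 39.4). At 1 Hz, 5 of 6 libraries lay above all control libraries. The log2 fold change of 0.36 ± 0.12 passed the p threshold (edgeR adjusted p = 0.0191) but not the limit on its size. It was 0.28 ± 0.12 at 4 Hz (edgeR adjusted p = 0.0543) and 0.12 ± 0.12 at 10 Hz (edgeR adjusted p = 0.598). With the small RNA share in the fit, Wnt9a differed from control by -0.006 ± 0.17 at 1 Hz (edgeR adjusted p = 0.996). At 4 Hz that value was -0.07 ± 0.16 (edgeR adjusted p = 0.869).

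Wnt10b, a ligand known to hold back fat cell formation, and Wnt11, which acts mainly without β-catenin, were called by edgeR between stimulated conditions and not against control. Wnt10b ranged from 7.70 to 10.5 CPM in control (median 8.98), from 5.67 to 9.06 at 1 Hz (median 6.63), from 7.18 to 11.5 at 4 Hz (median 8.88) and from 8.92 to 11.8 at 10 Hz (median 10.0). It was higher at 10 Hz than at 1 Hz by 0.55 ± 0.13 (edgeR adjusted p = 0.00226), with 5 of 6 libraries above all those at 1 Hz. Against control it differed by -0.36 ± 0.14 at 1 Hz (edgeR adjusted p = 0.0419), under the limit on size. Wnt11 ranged from 4.65 to 8.90 CPM in control (median 5.51), from 5.67 to 11.3 at 1 Hz (median 7.95), from 4.84 to 10.4 at 4 Hz (median 7.41) and from 4.24 to 6.92 at 10 Hz (median 6.24). Against control it differed by 0.44 ± 0.19 at 1 Hz (edgeR adjusted p = 0.0758), which the 3 limma fits on TPM called higher, as did edgeR without control library 4 or 1 Hz library 2. Wnt11 was lower at 10 Hz than at 1 Hz by -0.51 ± 0.19 (edgeR adjusted p = 0.0359). The ranges overlapped, and the call was lost without 1 Hz library 4 or 6 or 10 Hz library 3 or 5, with values between -0.58 and -0.40 when each library was left out in turn. Wnt4 and Wnt7b, at means of 2.10 and 0.552 TPM, were not called, and their log2 fold changes against control lay between 0.19 and 0.56. Wnt10b overlaps Wnt1 on the opposite strand over 489 exon bases, and Wnt1 had at most 4 counts in a library.

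The Frizzled receptors differed among themselves. Fzd4, a receptor best known for vessel growth in the retina (chr7:89053563-89062342, GRCm39, + strand), rose at 1 Hz against control, and was higher at 1 Hz than at 4 and at 10 Hz by direct tests. It ranged from 8.997 to 11.2 CPM in control (median 10.1), from 13.1 to 20.7 at 1 Hz (median 17.4), from 9.30 to 16.1 at 4 Hz (median 11.1) and from 7.26 to 9.44 at 10 Hz (median 8.80). The 1 Hz libraries did not overlap with control or with 10 Hz, and 5 of 6 libraries at 4 Hz lay below all those at 1 Hz. The log2 fold change at 1 Hz against control was 0.79 ± 0.13 (edgeR adjusted p = 6.82e-05). Fzd4 was lower at 4 Hz than at 1 Hz by -0.61 ± 0.12 (edgeR adjusted p = 0.00221) and at 10 Hz than at 1 Hz by -1.03 ± 0.13 (edgeR adjusted p = 2.20e-06). With the small RNA share as a covariate the latter were -0.60 (edgeR adjusted p = 0.00254) and -0.91 (edgeR adjusted p = 0.0140), and both were still called. The difference from control at 1 Hz was then 0.65 ± 0.21 (edgeR adjusted p = 0.251), and that call was lost.

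Fzd3, a receptor that acts in axon guidance and planar polarity (chr14:65429573-65499933, GRCm39, − strand), had the opposite order. It ranged from 10.6 to 17.6 CPM in control (median 13.4), from 6.58 to 9.83 at 1 Hz (median 8.56), from 8.29 to 11.6 at 4 Hz (median 10.6) and from 12.4 to 17.9 at 10 Hz (median 15.2). All 1 Hz libraries lay below all control libraries, and all 10 Hz libraries lay above those at 1 and 4 Hz. Fzd3 fell at 1 Hz by -0.70 ± 0.14 (edgeR adjusted p = 0.000504). At 4 Hz it differed from control by -0.41 ± 0.14 (edgeR adjusted p = 0.0190), under the limit on size. It was higher at 10 Hz than at 1 Hz by 0.85 ± 0.14 (edgeR adjusted p = 4.38e-05) and than at 4 Hz by 0.57 ± 0.13 (edgeR adjusted p = 0.00377), a call lost without 4 Hz library 6. It was not called in any comparison once the small RNA share was in the fit.

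Fzd5 and Fzd8, which both bind Wnt proteins in β-catenin signalling, were lower at 4 Hz in 1 comparison each. Fzd5 ranged from 37.7 to 45.8 CPM in control (median 42.2), from 35.5 to 51.0 at 1 Hz (median 44.5), from 25.0 to 41.1 at 4 Hz (median 29.7) and from 35.9 to 43.5 at 10 Hz (median 37.1). In 5 of 6 libraries at 4 Hz it lay below all libraries at 1 Hz, and the log2 fold change was -0.52 ± 0.10 (edgeR adjusted p = 0.00124). The value is close to the limit on size. Leaving out each library in turn gave -0.62 to -0.45, and the call was lost without 1 Hz library 4 or 5 or 4 Hz library 3, 5 or 6. Against control, Fzd5 at 4 Hz differed by -0.45 ± 0.10 (edgeR adjusted p = 0.000696), under that limit. Fzd8 ranged from 2.76 to 6.71 CPM in control (median 4.06), from 2.31 to 5.65 at 1 Hz (median 4.10), from 1.23 to 3.39 at 4 Hz (median 2.88) and from 2.36 to 4.44 at 10 Hz (median 2.74). It fell at 4 Hz against control by -0.68 ± 0.25 (edgeR adjusted p = 0.0326). Its ranges overlapped, and the call was lost without control library 2 or 6 or 4 Hz library 2, 4 or 5, with values between -0.79 and -0.49 when each library was left out in turn.

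The other 5 tested receptors were not called by edgeR in any comparison. Fzd1 ranged from 27.7 to 38.1 CPM in control (median 29.2), from 23.3 to 32.4 at 1 Hz (median 29.8), from 20.8 to 32.0 at 4 Hz (median 24.03) and from 26.7 to 32.1 at 10 Hz (median 28.0). Its largest difference from control was -0.32 ± 0.10 at 4 Hz (edgeR adjusted p = 0.0153), which limma on log2(TPM + 0.1) called lower. Fzd7, the leading receptor, known from muscle stem cells, had means of 117 ± 6.20 CPM in control (SD, n = 6), 100 ± 7.86 at 1 Hz, 98.5 ± 10.3 at 4 Hz and 109 ± 9.02 at 10 Hz. It differed from control by -0.22 ± 0.08 at 1 Hz (edgeR adjusted p = 0.0228) and -0.25 ± 0.08 at 4 Hz (edgeR adjusted p = 0.0101). Fzd6 differed by 0.40 ± 0.10 at 1 Hz (edgeR adjusted p = 0.00354) and 0.39 ± 0.10 at 4 Hz (edgeR adjusted p = 0.00343), with 6 of 6 libraries at 4 Hz above control. Fzd2 lay between 17.9 and 45.3 CPM and Fzd9 between 1.05 and 6.32 CPM over all libraries.

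**Figure D4:**
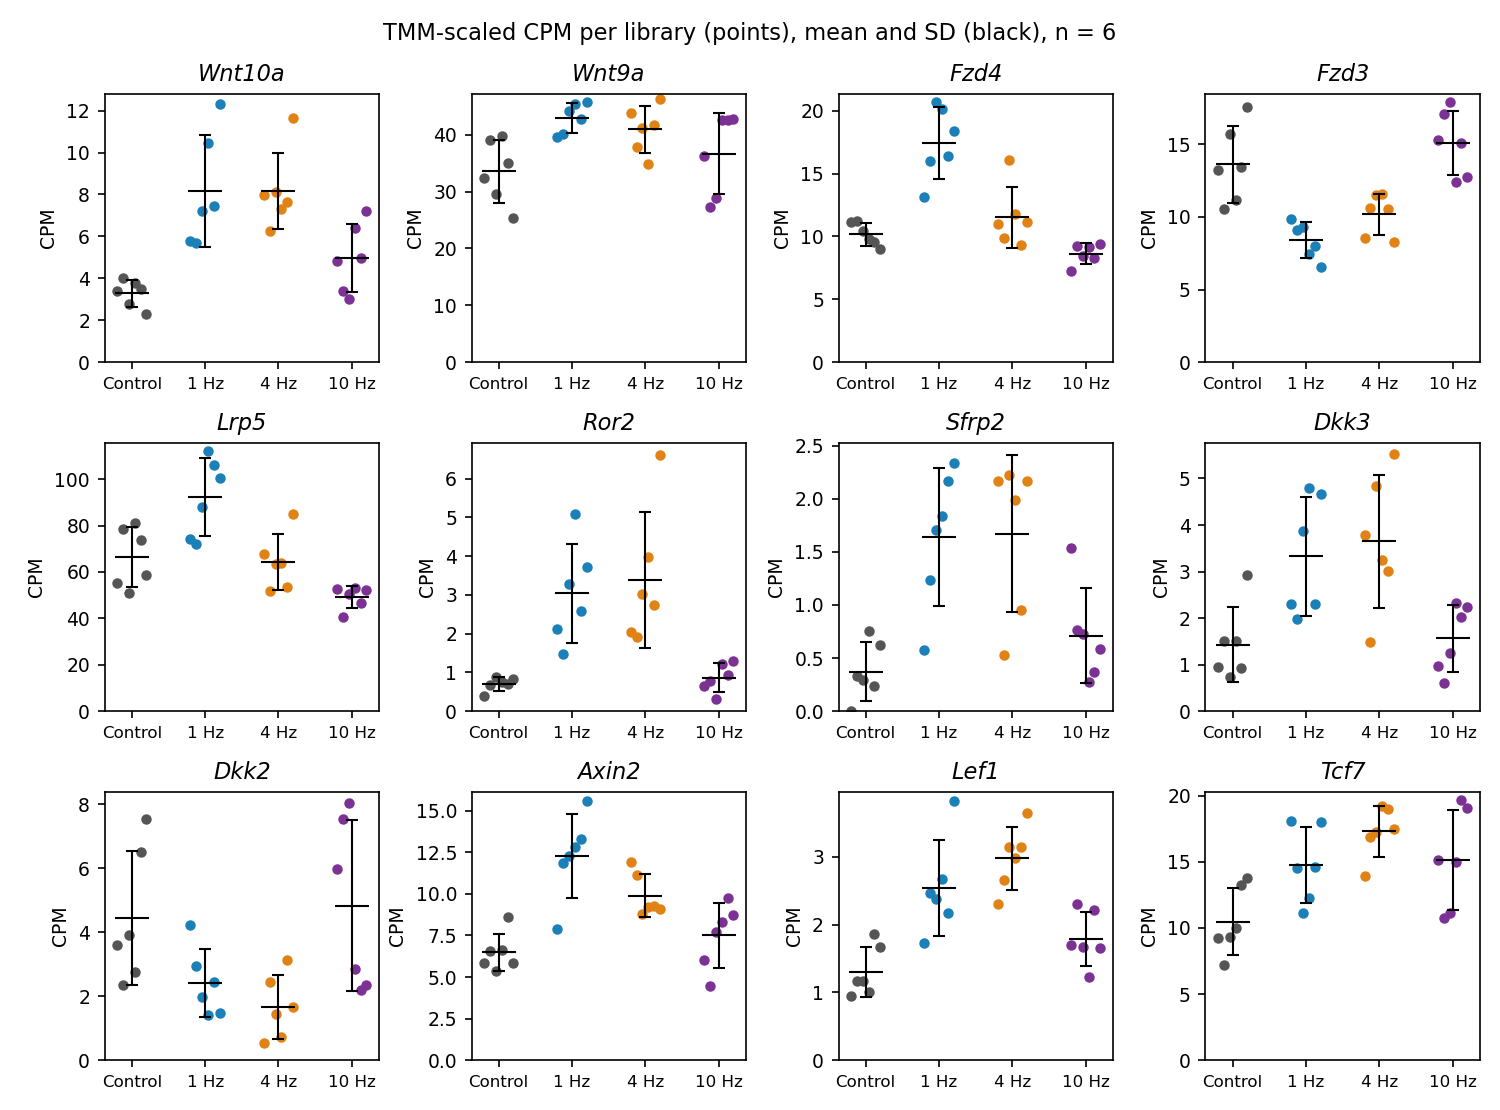
TMM-scaled CPM of 12 members in each library (points) of the 4 conditions, with the mean and SD in black, n = 6. Wnt10a, Ror2, Lef1 and Axin2 are higher at 1 and 4 Hz than in control, Fzd4 is highest at 1 Hz, and Fzd3 and Dkk2 run the other way.

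Ror2, the Wnt5a receptor of branches without β-catenin (chr13:53263348-53440247, GRCm39, − strand), was low, at 2 to 6 counts per control library and 6 to 67 at 1 and 4 Hz. It ranged from 0.378 to 0.871 CPM in control (median 0.724), from 1.48 to 5.08 at 1 Hz (median 2.92), from 1.91 to 6.61 at 4 Hz (median 2.87) and from 0.313 to 1.30 at 10 Hz (median 0.845). Both 1 and 4 Hz lay wholly above control and wholly above 10 Hz, while control and 10 Hz overlapped. Ror2 passed the filter on low counts only through libraries at 1 and 4 Hz, so its tests against control and 10 Hz are tied to that selection. Ror2 rose at 1 Hz by 2.12 ± 0.38 (edgeR adjusted p = 0.000150) and at 4 Hz by 2.25 ± 0.37 (edgeR adjusted p = 4.33e-05). At 10 Hz it differed from control by 0.24 ± 0.43 (edgeR adjusted p = 0.807), and it was lower than at 1 Hz by -1.87 ± 0.35 (edgeR adjusted p = 0.000188) and than at 4 Hz by -2.00 ± 0.34 (edgeR adjusted p = 0.000316). Once the small RNA share was added, the differences from control were 1.34 ± 0.59 at 1 Hz (edgeR adjusted p = 0.405) and 1.52 ± 0.57 at 4 Hz (edgeR adjusted p = 0.153).

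Lrp5 and Lrp6, the paired co-receptors of the β-catenin branch, differed less. Lrp5 ranged from 51.0 to 81.1 CPM in control (median 66.2), from 72.0 to 112 at 1 Hz (median 94.2), from 51.7 to 85.1 at 4 Hz (median 63.6) and from 40.4 to 53.2 at 10 Hz (median 51.3). It was lower at 10 Hz than at 1 Hz by -0.91 ± 0.13 (edgeR adjusted p = 1.42e-05), with no overlap. It was lower at 4 Hz than at 1 Hz by -0.52 ± 0.13 (edgeR adjusted p = 0.00953), a call lost without 1 Hz library 4, 5 or 6 or 4 Hz library 2 or 5, with values between -0.62 and -0.46 when each library was left out in turn. Its difference from control at 1 Hz, 0.48 ± 0.13 (edgeR adjusted p = 0.00634), was under the limit on size. With the small RNA share in the fit that difference was 0.16 ± 0.20 (edgeR adjusted p = 0.859). Lrp6 had means of 73.3 ± 7.04 CPM in control, 72.7 ± 9.48 at 1 Hz, 57.3 ± 6.60 at 4 Hz and 55.1 ± 4.83 at 10 Hz (SD, n = 6). Every library at 4 and at 10 Hz lay below the control range, with log2 fold changes of -0.35 ± 0.09 (edgeR adjusted p = 0.00346) and -0.41 ± 0.09 (edgeR adjusted p = 0.00935). Lrp6 was the single member whose difference at 10 Hz from control passed the p threshold, and it was still -0.41 in the fit with the small RNA share (edgeR adjusted p = 0.0132). In that fit Lrp5 also passed the p threshold at 10 Hz against control, at -0.47 (edgeR adjusted p = 0.0339), under the limit on size.

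The secreted antagonists moved in both directions. Sfrp2, a Wnt-binding protein of the frizzled-related family, was present at 0 to 6 counts per control library and at 3 to 25 at 1 and 4 Hz. It ranged from 0 to 0.752 CPM in control (median 0.313), from 0.578 to 2.34 at 1 Hz (median 1.77), from 0.531 to 2.23 at 4 Hz (median 2.08) and from 0.273 to 1.53 at 10 Hz (median 0.660). At each of 1 and 4 Hz, 5 of 6 libraries lay above all control libraries. The rise was 2.07 ± 0.49 at 1 Hz (edgeR adjusted p = 0.00192), and at 4 Hz it was 2.05 ± 0.49 (edgeR adjusted p = 0.00158). It was lower at 10 Hz than at 1 Hz by -1.14 ± 0.41 (edgeR adjusted p = 0.0309) and than at 4 Hz by -1.12 ± 0.41 (edgeR adjusted p = 0.0469). The first of these calls was lost without 1 Hz library 4, 5 or 6 or 10 Hz library 3, 4, 5 or 6, with values between -1.59 and -0.99 when each library was left out in turn. The second was lost without any 1 of 17 of the 24 libraries (all but control 1, 4 and 6, 1 Hz 1, 4 Hz 2 and 5 and 10 Hz 1), with values between -1.57 and -0.96.

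Dkk3, a divergent Dickkopf protein, ranged from 0.726 to 2.93 CPM in control (median 1.22), from 1.97 to 4.80 at 1 Hz (median 3.10), from 1.49 to 5.53 at 4 Hz (median 3.52) and from 0.615 to 2.32 at 10 Hz (median 1.64). The ranges overlapped with control, which 3 of 6 libraries at 1 Hz and 5 of 6 at 4 Hz exceeded. Dkk3 rose at 1 Hz by 1.27 ± 0.37 (edgeR adjusted p = 0.00837) and at 4 Hz by 1.37 ± 0.36 (edgeR adjusted p = 0.00398). It was lower at 10 Hz than at 1 Hz by -1.14 ± 0.35 (edgeR adjusted p = 0.0118) and than at 4 Hz by -1.23 ± 0.34 (edgeR adjusted p = 0.0111).

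Dkk2, which binds Lrp5 and Lrp6, ran the other way. It ranged from 2.35 to 7.53 CPM in control (median 3.76), from 1.41 to 4.24 at 1 Hz (median 2.21), from 0.542 to 3.14 at 4 Hz (median 1.56) and from 2.21 to 8.03 at 10 Hz (median 4.42). Every condition overlapped with control. Dkk2 fell at 4 Hz by -1.39 ± 0.41 (edgeR adjusted p = 0.00875), and differed by -0.90 ± 0.40 at 1 Hz (edgeR adjusted p = 0.0842). It was higher at 10 Hz than at 4 Hz by 1.56 ± 0.40 (edgeR adjusted p = 0.00620) and than at 1 Hz by 1.07 ± 0.39 (edgeR adjusted p = 0.0329), a call lost without 1 Hz library 3, 4, 5 or 6 or 10 Hz library 1, 2 or 3, with values between 0.87 and 1.29 when each library was left out in turn. In the fit with the small RNA share, its difference at 4 Hz from control was 0.08 ± 0.56 (edgeR adjusted p = 0.957). Sfrp4 was not called, and its largest difference from control was -0.94 ± 0.34 at 10 Hz (edgeR adjusted p = 0.104).

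Among the nuclear factors, Lef1, a DNA-binding partner of β-catenin (chr3:130903919-131018005, GRCm39, + strand), ranged from 0.946 to 1.86 CPM in control (median 1.17), from 1.73 to 3.82 at 1 Hz (median 2.43), from 2.30 to 3.65 at 4 Hz (median 3.06) and from 1.23 to 2.31 at 10 Hz (median 1.68). Its rise was 1.01 ± 0.24 at 1 Hz (edgeR adjusted p = 0.00186) and 1.22 ± 0.23 at 4 Hz (edgeR adjusted p = 0.000200). At 4 Hz every library, and at 1 Hz 5 of 6, exceeded the control range. Lef1 was lower at 10 Hz than at 4 Hz by -0.75 ± 0.21 (edgeR adjusted p = 0.0130). In the fit with the small RNA share, its difference from control stood at 1.05 ± 0.38 at 1 Hz (edgeR adjusted p = 0.291) and 1.26 ± 0.37 at 4 Hz (edgeR adjusted p = 0.0665). The control values rest on 5 to 8 counts per library, and limma on log2(TPM + 1) called Lef1 at neither frequency. It shares 1518 exon bases with the opposite-strand gene Lef1os1, which had at most 3 counts in a library.

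Tcf7, another β-catenin partner, ranged from 7.21 to 13.8 CPM in control (median 9.66), from 11.1 to 18.1 at 1 Hz (median 14.6), from 13.9 to 19.2 at 4 Hz (median 17.4) and from 10.8 to 19.7 at 10 Hz (median 15.1). Only the 4 Hz libraries lay wholly above control. Tcf7 rose by 0.74 ± 0.17 at 4 Hz (edgeR adjusted p = 0.000989) and, at the limit on size, by 0.50 ± 0.17 at 1 Hz (edgeR adjusted p = 0.0227). The 1 Hz call was lost without control library 1, 2, 3 or 4 or 1 Hz library 1 or 6, with values between 0.43 and 0.60 when each library was left out in turn. It was also lost under total-count scaling, in the 3 limma fits on TPM and with the small RNA share. At 10 Hz the difference was of similar size, 0.54 ± 0.17, and did not pass (edgeR adjusted p = 0.0592). Tcf7 at 10 Hz differed from 1 Hz by 0.04 ± 0.16 (edgeR adjusted p = 0.874) and from 4 Hz by -0.20 ± 0.16 (edgeR adjusted p = 0.382). Tcf7l2, at a mean of 1.24 TPM, was not called.

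Axin2, a scaffold of the β-catenin destruction complex and a widely used readout of β-catenin signalling (chr11:108811169-108841609, GRCm39, + strand), ranged from 5.37 to 8.60 CPM in control (median 6.20), from 7.90 to 15.6 at 1 Hz (median 12.6), from 8.77 to 11.9 at 4 Hz (median 9.25) and from 4.46 to 9.76 at 10 Hz (median 8.02). It lay above all control libraries in 5 of 6 libraries at 1 Hz and in 6 of 6 at 4 Hz. Axin2 rose at 1 Hz by 0.94 ± 0.17 (edgeR adjusted p = 0.000165) and at 4 Hz by 0.62 ± 0.17 (edgeR adjusted p = 0.00533). At 10 Hz it differed from control by 0.21 ± 0.17 (edgeR adjusted p = 0.527) and was lower than at 1 Hz by -0.73 ± 0.16 (edgeR adjusted p = 0.00106). With the small RNA share in the fit, the differences from control were 0.24 ± 0.23 at 1 Hz (edgeR adjusted p = 0.775) and -0.05 ± 0.22 at 4 Hz (edgeR adjusted p = 0.931). The call at 4 Hz was also lost in the limma fits on TPM. In bulk RNA, fewer cells of a type and less RNA per cell cannot be told apart, and this holds for Axin2 as for the other members.

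The promoters of the members were searched for CTTTGAT and CTTTGAA, letters of the site that Tcf and Lef factors prefer, on both strands, from 250 bases before to 50 after the start of the canonical transcript (GENCODE M39, GRCm39). At least 1 match was found in 5 of 48 members (Axin2, Lrp6, Nkd1, Dkk4 and Wnt8a), or 10.42%, and in 2 of the 27 tested. The share was 8.48% of 21770 promoters of coding genes and 6.28% of the 11986 that were tested, so the members are close to the background. The stretches around the match in Axin2, which rose, in the co-receptor Lrp6 and in the feedback inhibitor Nkd1 are shown on the strand of each gene, with the match in capitals.
Axin2, chr11:108811596-108811637, + strand, match 22 bases before the start: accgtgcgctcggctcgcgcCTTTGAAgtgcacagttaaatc
Lrp6, chr6:134544292-134544338, − strand, match 106 bases before the start: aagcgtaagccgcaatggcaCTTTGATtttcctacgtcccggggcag
Nkd1, chr8:89247879-89247924, + strand, match 26 bases before the start: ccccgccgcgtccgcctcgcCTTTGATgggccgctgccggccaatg
A match is only a description of these letters, and nothing about binding was measured. Lef1, Tcf7, Wnt10a and Ror2 held no match in this window.

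Fewer members were called between 1 and 4 Hz than between either and control, as was the case for all genes. At 4 Hz against 1 Hz, 3 of 27 were called, all lower (Lrp5, Fzd5 and Fzd4), where 3.00% of all genes were called, 1.59% higher and 1.40% lower. These 3 were also called with the small RNA share in the fit, which overlaps between these conditions. At 10 Hz against 1 Hz, 11 of 27 were called, 3 higher (Dkk2, Fzd3 and Wnt10b) and 8 lower (Ror2, Sfrp2, Dkk3, Fzd4, Lrp5, Axin2, Wnt10a and Wnt11), against 17.9% of all genes, 9.45% higher and 8.49% lower. At 10 Hz against 4 Hz, 7 of 27 were called, 2 higher (Dkk2 and Fzd3) and 5 lower (Ror2, Dkk3, Sfrp2, Lef1 and Wnt10a), against 11.0% of all genes, 5.32% higher and 5.64% lower. In the fit with the small RNA share, Fzd4 alone was called at 10 Hz against 1 Hz, and 0 members at 10 Hz against 4 Hz, where 6 and 3 had an unadjusted p below 0.05. That fit called 246 of all genes (1.85%) at 10 Hz against 1 Hz and 0 at 10 Hz against 4 Hz, so the latter count says nothing about the members.

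**Figure D5:**
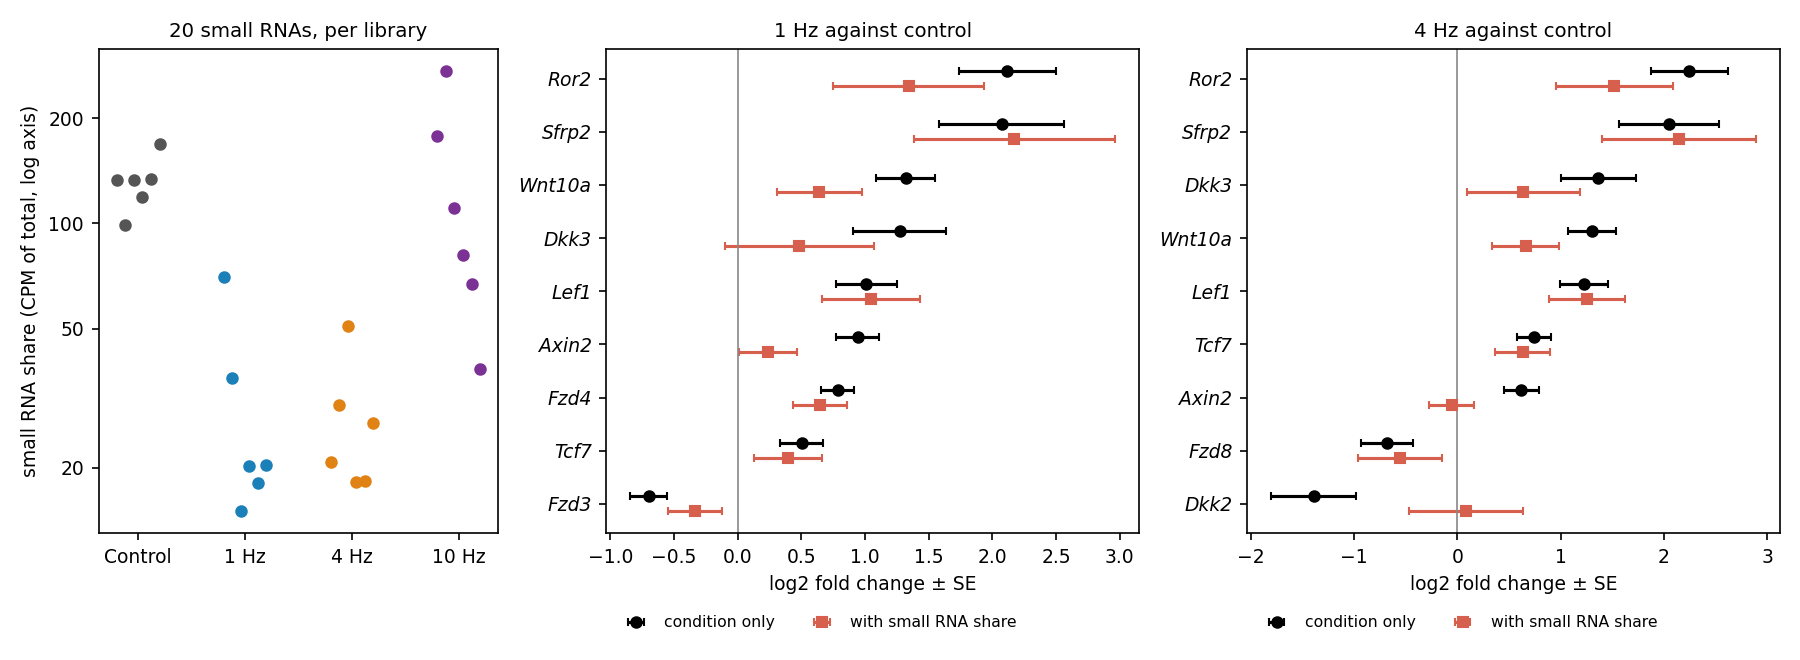
Left, share of 20 small RNAs in each library (log axis); center and right, log2 fold change ± SE of the members called at 1 Hz and at 4 Hz against control, fitted by edgeR with condition alone (black circles) and with the small RNA share added (red squares), n = 6 libraries per condition. Lef1 and Sfrp2 keep their size with wider errors, and Axin2 at 4 Hz moves from 0.62 to -0.05.

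Of the members called against control by condition alone, all 9 at 1 Hz kept their sign with the small RNA share in the fit, and 7 of 9 at 4 Hz did, with Axin2 and Dkk2 as the exceptions. The median log2 fold change in the called direction was 1.01 without the share and 0.64 with it at 1 Hz, and 1.30 and 0.64 at 4 Hz. Lef1, Sfrp2, Tcf7 and, at 4 Hz, Fzd8 (-0.68 to -0.55) moved by less than the SE of the fit without it. Axin2, Wnt10a, Dkk3, Ror2, Fzd3 and Fzd4 at 1 Hz, and Dkk2 at 4 Hz, came closer to 0 by more than theirs or changed sign. The part of RNA composition in these results was not tested beyond this fit.

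Markers of other cell types moved with some conditions. The osteoblast or chondrocyte list (6 of 6 genes found) summed to 81.1 to 128 CPM in control, 134 to 207 at 1 Hz, 105 to 162 at 4 Hz and 84.3 to 134 at 10 Hz, almost all of it Sox9 and Runx2, with Sp7 and Acan at or near 0. The fibroblast list (6 of 6 found) summed to 264 to 578, 422 to 659, 311 to 582 and 278 to 382 CPM, led by Col3a1, with Lum and Thy1 near 0. Its genes did not move together. The means of Col3a1, Col1a1 and Pdgfra were higher at 1 and 4 Hz than in control, while Dcn was at 35.9 CPM in control, 32.8 at 1 Hz and 23.6 at 4 Hz. The adipocyte list (5 of 5 found) summed to 25.9 to 29.5, 33.3 to 49.3, 34.7 to 44.8 and 22.8 to 38.5 CPM, nearly all Cebpa and Pparg, with Adipoq, Fabp4 and Plin1 near 0. The myoblast or satellite cell list (3 of 3 found) summed to 84.8 to 159, 95.8 to 183, 93.4 to 162 and 112 to 186 CPM, led by Cdh15. Pax7 had means of 1.86 CPM in control, 3.72 at 1 Hz and 3.84 at 4 Hz. Those of Myf5 were 21.1, 18.3 and 13.8. Acta1 led the fiber sum, at 2889 CPM in control and 4954 at 1 Hz, while Ttn was at 1030 and 1076. The fiber and adipocyte sums in control were below those of every library at 1 and at 4 Hz, and the osteoblast or chondrocyte sum was below those at 1 Hz. Their part in the members' results was not tested.

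The wider pathway was read from 73 further genes, of which 58 were tested. At 1 Hz, 15 of 58 were called against control (11 higher and 4 lower), at 4 Hz 13 (8 higher and 5 lower) and at 10 Hz 1 (Lgr6, lower), to be read against the 18.3%, 20.1% and 1.86% of all genes given above. By group, the calls lay in ligand release and inactivation (2 of 4 at 1 Hz and 2 of 4 at 4 Hz), surface co-receptors and modulators (5 of 9 and 3 of 9), planar polarity (3 of 8 and 3 of 8) and other target genes (3 of 8 and 2 of 8). Cytoplasmic transduction had 1 of 18 and 2 of 18 called, and nuclear cofactors 1 of 11 in each. With the small RNA share in the fit, 0 of the 58 were called at 1 or 4 Hz, and Lgr6 was still called at 10 Hz. That fit called 1 of all genes at 1 Hz, 250 (1.88%) at 4 Hz and 203 (1.52%) at 10 Hz, so the count at 1 Hz says nothing about these genes. Unlike for the members, values in the other settings and with each library left out are not given for the 58.

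Porcn, the enzyme that attaches the lipid to Wnt proteins, ranged from 41.0 to 61.9 CPM in control (median 50.7), from 64.0 to 129 at 1 Hz (median 89.7), from 72.7 to 110 at 4 Hz (median 83.1) and from 49.3 to 70.2 at 10 Hz (median 52.9). Its rise was 0.92 ± 0.15 at 1 Hz (edgeR adjusted p = 4.98e-05) and 0.74 ± 0.15 at 4 Hz (edgeR adjusted p = 0.000304), and no library of either overlapped with control. Znrf3, a ligase that removes Frizzled from the membrane and is itself a β-catenin target, had means of 8.98 ± 1.45 CPM in control, 15.1 ± 3.21 at 1 Hz, 17.1 ± 2.48 at 4 Hz and 9.88 ± 2.43 at 10 Hz (SD, n = 6). It rose by 0.77 ± 0.16 (edgeR adjusted p = 0.000676) and 0.94 ± 0.16 (edgeR adjusted p = 5.83e-05) at 1 and 4 Hz, again without overlap with control.

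Lgr6, an R-spondin receptor, was lower at all 3 frequencies. It ranged from 6.50 to 11.1 CPM in control (median 8.17), from 1.49 to 3.66 at 1 Hz (median 2.50), from 0.948 to 2.62 at 4 Hz (median 1.59) and from 2.05 to 7.99 at 10 Hz (median 3.27). It fell by -1.80 ± 0.31 (edgeR adjusted p = 9.97e-05), -2.36 ± 0.31 (edgeR adjusted p = 3.27e-06) and -0.97 ± 0.29 (edgeR adjusted p = 0.0465). With the small RNA share in the fit, Lgr6 differed by -0.56 ± 0.40 at 1 Hz (edgeR adjusted p = 0.672). At 4 Hz it then differed by -1.17 ± 0.40 (edgeR adjusted p = 0.116) and at 10 Hz by -0.90 ± 0.23 (edgeR adjusted p = 0.0255). The planar polarity genes Prickle1 and Vangl2 fell at 1 Hz by -0.65 ± 0.16 (edgeR adjusted p = 0.00228) and -0.58 ± 0.19 (edgeR adjusted p = 0.0183), and at 4 Hz by -0.89 ± 0.16 (edgeR adjusted p = 8.87e-05) and -0.84 ± 0.19 (edgeR adjusted p = 0.00100). With the small RNA share in the fit, Prickle1 differed by -0.59 ± 0.26 and -0.83 ± 0.26 at 1 and 4 Hz. Vangl2 then differed by -0.05 ± 0.28 and -0.33 ± 0.28.

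Notum, which removes the lipid from Wnt proteins, was at 0 to 0.697 CPM in control. It rose by 1.55 ± 0.57 at 1 Hz (edgeR adjusted p = 0.0365) and 2.31 ± 0.54 at 4 Hz (edgeR adjusted p = 0.00133). The control range overlapped with 1 Hz (0 to 1.43 CPM) and not with 4 Hz (0.849 to 3.75). Notum and Porcn make up the calls in ligand release and inactivation against control. Notum reached the cut-off of the filter on low counts in no control or 10 Hz library. It passed only through libraries at 1 and 4 Hz, so its presence among the tested genes is itself tied to the comparison. Ror1, a relative of Ror2, rose by 1.24 ± 0.32 at both (edgeR adjusted p = 0.00388 and 0.00307). Its control range of 0.946 to 2.09 CPM overlapped with 1 Hz (1.35 to 5.22) and not with 4 Hz (2.76 to 4.24). Ccn5, listed as a target gene, rose by 0.83 ± 0.32 (edgeR adjusted p = 0.0423) and 1.21 ± 0.31 (edgeR adjusted p = 0.00289). With 3 to 15 counts per control library, its control range of 0.568 to 2.93 CPM overlapped with 1 Hz (1.16 to 3.50) and 4 Hz (2.12 to 4.98). Between stimulated conditions, 1 of the 58 genes was called at 4 Hz against 1 Hz, 12 at 10 Hz against 1 Hz (1 higher and 11 lower) and 7 at 10 Hz against 4 Hz (2 higher and 5 lower). These are 1.72%, 20.7% and 12.1% of the 58, near the 3.00%, 17.9% and 11.0% of all genes called. The single gene called at 4 Hz against 1 Hz was Myc, named here after its values were seen, which was lower by -1.15 ± 0.12 (edgeR adjusted p = 5.51e-07).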

How the data were processed

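RNA from 24 tissues, 6 per condition, was sequenced by the authors as paired-end reads from directional libraries on a Singular G4 instrument. They processed the reads with nf-core/rnaseq against GRCm39 and its Ensembl annotation, whose release is not given in the sources used here. Whether counting used strand is not given either. Salmon's estimated counts for each gene were deposited without normalization, beside the TPM that the authors scaled within each library.

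Conditions and replicate numbers came from the sample titles. Estimated counts were rounded to whole numbers and filtered with edgeR's filterByExpr by condition (13318 genes left). After TMM scaling, a single model with the 4 conditions and no other term was fitted to the 24 libraries, and contrasts were tested by quasi-likelihood (edgeR 4.0.16 under R 4.3.3). The SE is the log2 fold change divided by the square root of F. CPM use TMM-scaled library sizes, the small RNA share uses the raw total, and SDs are between libraries. The study describes its replicates as biological, and p-values measure only the spread between these samples. In each of the 60 pairs within a condition the gap between counts exceeded sampling noise, and pairs across conditions were not compared.

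All members are accounted for. Those called in any comparison are given in full, with Wnt9a, Fzd1 and Sfrp1 always shown. Of the 73 other pathway genes, those called in at least 2 comparisons with control, at most 8 and by fold change, are named. The members and lists were chosen with earlier results of these data known. Positions and promoters came from GENCODE M39, where all 48 members were found by identifier. The alternatives were DESeq2 1.42.0 and its size factors, total-count scaling, no filter on low counts, limma 3.58.1 on log2(TPM + 1) or, with a smaller pseudocount, log2(TPM + 0.1), both limited to genes averaging at least 1 TPM, and on log2(TPM + 1) without that limit (such fold changes understate those of low genes), fits of just the conditions compared, a block for the replicate number, calls by the adjusted p without the limit on size, the small RNA share as a covariate, and leaving out each library. The fits were tested on simulated data.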

Additional observations from a re-analysis of the deposited data

Results flagged for a closer look

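For 17 members, the 6 libraries of each condition were checked for 1 that stands apart from the rest by Dixon's test, and 4 of 68 such groups held one, where chance alone flags about 1 in 20. Wnt10a in 4 Hz library 6 was at 11.6 CPM, with the next library at 8.12. Fzd4 in 4 Hz library 3 was at 16.1 CPM, with the next at 11.8. Fzd5 in 4 Hz library 2 was at 41.1 CPM, with the next at 30.8. Dkk3 in control library 6 was at 2.93 CPM, with the next at 1.51. Each of the 4 stood on the high side of its group.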

How the results depend on the processing

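The 9 members called at 1 Hz and the 9 at 4 Hz against control became 14 and 15 by the adjusted p alone and 0 and 0 with the small RNA share as a covariate, and lay within 1.5 times the original count in the other settings. The share of all genes by the adjusted p alone is not given here, so the 14 and 15 have no background beside them. At 10 Hz against control, 0 calls became 1 under the DESeq2 test (Tcf7), the 3 limma fits (Lrp6) and the adjusted p alone. At 10 Hz against 1 Hz, 11 calls became 6, 7 and 5 under limma on log2(TPM + 1), log2(TPM + 0.1) and log2(TPM + 1) without a filter, and 1 with the covariate. At 10 Hz against 4 Hz, 7 calls became 1, 1 and 1 under the same limma fits and 0 with the covariate. Of all genes, limma on log2(TPM + 1) called 743 higher and 1060 lower at 10 Hz against 1 Hz, where edgeR called 1259 and 1131. At 10 Hz against 4 Hz it called 645 higher and 389 lower, where edgeR called 709 and 751. The 2 limma fits with a filter held 22 members, without Ror2 (mean 0.703 TPM) and Sfrp2 (0.926 TPM). Part of the drop there is thus genes not fitted. The covariate reversed the sign of Axin2 at 4 Hz against control (a log2 fold change of -0.054) and of Dkk2 at 4 Hz against control (0.084) and at 10 Hz against 1 Hz (-0.28). The cause was not tested. Leaving out 1 library gave 8 to 12 calls at 1 Hz and 8 to 10 at 4 Hz against control, 0 to 1 at 10 Hz (1 without control library 4 or 6 or 10 Hz library 2 or 3), 1 to 4 at 4 Hz against 1 Hz (1 without 1 Hz library 4 or 5 or 4 Hz library 5), 8 to 12 at 10 Hz against 1 Hz and 4 to 7 at 10 Hz against 4 Hz (4 without 4 Hz library 6). Total-count scaling shifted the all-gene median at 4 Hz against control to -0.11 (log2) and the higher share of calls to 35.7%, and limma on log2(TPM + 1) moved them to -0.16 and 24.8%; the members then split into 7 higher and 4 lower, and 3 higher and 4 lower.

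With the replicate number as a block, the calls were 9 (Wnt4 gained, and Tcf7 lost at 0.496), 9 and 1 (Tcf7) against control and 3, 11 and 6 between frequencies. Libraries that share a number correlated at -0.18 to 0.36 over 36 pairs (median 0.0173), 10 of them above 0.1. Among the libraries of other conditions, 10 of 24 libraries correlated best with their own number. With numbers from 1 to 6, chance alone would give about 1 in 6, so 10 of 24 is more than that. These values do not settle whether a number marks a shared batch, so the fit with the block is given beside the main one. At 2 to 6 counts per control library for Ror2 and 0 to 6 for Sfrp2, depth limits the size of their changes.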

Other observations

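Fzd3 had very unequal TPM in control beside a narrower spread of CPM. Its TPM were 4.82 and 5.74 in control libraries 1 and 6 and 1.29 to 1.69 in the other 4, where the CPM of these libraries were 13.2 and 17.6 and those of the others 10.6 to 15.7. In the limma fits on TPM, Fzd3 was called lower than control at 4 Hz as well as at 1 Hz. The untested ligand Wnt5b and the antagonist Wif1, at medians of 2 and 2.5 counts per control library and 12 and 9.5 at 4 Hz, were both called higher at 4 Hz against control by DESeq2 without that filter, and Wnt5b also by edgeR without it. Wnt5a, the known ligand of Ror2, had a median of 2 counts per control library, 7 at 1 Hz, 4 at 4 Hz and 4.5 at 10 Hz, and was not tested by edgeR after the filter. The counts of these 3 genes are not scaled for depth, whose median was lowest in control.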
